A study of Mus musculus with 2 samples.

Results

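The miRNA genes described here are 5 genes of imprinted loci outside the Dlk1-Dio3 domain: Mir335 of Mest, Mir296 and Mir298 of the Nespas-Gnas domain, Mir483 of Igf2 and Mir675 of H19. The rule that picks them uses gene name and locus and no measured value, although it was written with earlier results of these data known, and they are 5 of the 1973 miRNA genes counted. Small RNA below 30 nt was sequenced from the stomach of B6NCrl mouse embryos at 14.5 days of development. The series holds 1 group of 2 biological replicates, each labelled as a single stomach of a pup and collected on separate days. Sex is given as male and female pooled, and no treatment or mutation is named. A single stomach and pooled sexes do not go together, so whether a library came from 1 embryo or several is not settled. Nothing was varied between the libraries, so the only comparison available between samples is of the replicates, and replicate and collection day cannot be told apart. The tissue is a whole organ, in which fewer cells of a type and less RNA per cell cannot be told apart.

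An imprinted gene is transcribed mainly from the chromosome inherited from 1 parent. Mest, Igf2 and Nespas are known as paternally expressed transcripts. H19, which shares an imprinting control region and enhancers with Igf2, is expressed from the maternal copy. A miRNA embedded in such a transcript is cut out of it as a hairpin, and either strand of the hairpin stem, the 5p or the 3p arm, can become the mature miRNA that pairs with targets through its seed, bases 2 to 8. The libraries carry no information on the parental allele, and the host transcripts were not measured.

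The mature sequences are shown because the deposited tables count a precursor as 1 unit and do not separate its arms. Each is given 5′ to 3′ with the seed in capitals, from RefSeq on GRCm38.p6, where all 5 genes matched.
miR-335-5p: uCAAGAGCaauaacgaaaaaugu
miR-335-3p: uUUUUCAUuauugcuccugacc
miR-296-5p: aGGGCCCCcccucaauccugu
miR-296-3p: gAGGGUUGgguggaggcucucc
miR-298-5p: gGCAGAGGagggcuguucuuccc
miR-298-3p: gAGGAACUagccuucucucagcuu
miR-483-5p: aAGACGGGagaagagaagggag
miR-483-3p: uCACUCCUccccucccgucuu
miR-675-5p: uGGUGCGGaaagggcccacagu
miR-675-3p: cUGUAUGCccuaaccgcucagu

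None of the 10 arms shared its seed with a mature miRNA of another gene in the RefSeq table, so the 5 genes form no seed family with each other or with other listed mouse miRNAs. Among the 325 detected genes with a RefSeq mature sequence, 137 (42.2%) likewise had no arm with a shared seed. Detection means at least 10 counts in each library. No precursor of the 5 shared a run of 20 nt with any other miRNA precursor in GENCODE M21, the longest run being 11 nt for 4 of them and 12 nt for Mir298. Of the 361 detected genes, 82 (22.7%) had such a stretch. The tables leave out reads that map to several places, which came to 48.7% (replicate 1) and 48.4% (replicate 2) of the number counted for genes. A full genome search for further copies of the mature sequences was not made.

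The hairpins also differ in composition. They are printed here with the mature arms in capitals, as Mir335 and Mir675 are the most and the least abundant of the group.
Mir335: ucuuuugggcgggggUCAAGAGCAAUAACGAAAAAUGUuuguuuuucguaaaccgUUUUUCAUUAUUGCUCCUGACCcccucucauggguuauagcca
Mir675: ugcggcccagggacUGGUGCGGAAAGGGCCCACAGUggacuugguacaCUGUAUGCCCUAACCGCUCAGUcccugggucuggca
The Mir335 hairpin is 98 nt long with 42.9% G or C, and the Mir675 hairpin 84 nt with 63.1%. Mir296 (63.3%), Mir483 (58.9%) and Mir298 (53.7%) also lay above the median of 50.4% over the 310 detected genes with a RefSeq hairpin. Mir335 was the only one of the 5 below that median, and its arms hold 30.4% and 36.4% G or C against 50.0% to 68.2% in the other 8 arms. The predicted folding energy was -56.0 kcal/mol for Mir675 and -44.3 kcal/mol for Mir335. Per nucleotide, 5 of the 310 hairpins were predicted to be more stable than Mir675 and 126 more stable than Mir335.

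The 5 precursors sit differently on their transcripts in GENCODE M21 (GRCm38, mm10). Mir335 (ENSMUSG00000065501.1) lies on chromosome 6 at 30741299 to 30741396, plus strand, and was intronic in all 7 Mest transcripts that span it. Mir483 (ENSMUSG00000070140.1) lies on chromosome 7 at 142654924 to 142654996, minus strand, and was intronic in all 7 Igf2 transcripts that span it. A second protein-coding gene model, Gm49394, overlaps the same place on the same strand. Mir675 (ENSMUSG00000076275.1), on chromosome 7 at 142577064 to 142577147, minus strand, is the only exonic precursor of the group. It falls in an exon of 3 of the 4 H19 transcripts that span it, exon 1 in 2 of them, and in an intron of the other. Mir483 and Mir675 are 77.8 kb apart on the same strand.

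Mir296 (ENSMUSG00000065521.1, chromosome 2, 174267047 to 174267125, minus strand) and Mir298 (ENSMUSG00000065410.1, chromosome 2, 174267504 to 174267585, minus strand) are 378 nt apart. Neither lay inside an annotated transcript other than its own. The annotated Nespas gene runs from 174281237 to 174295436 on the same strand, and its 3′ end stops 13.7 kb short of Mir298 and 14.1 kb short of Mir296. Their assignment to Nespas therefore rests on the known extent of the domain and not on the gene model used here.

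**Figure D1:**
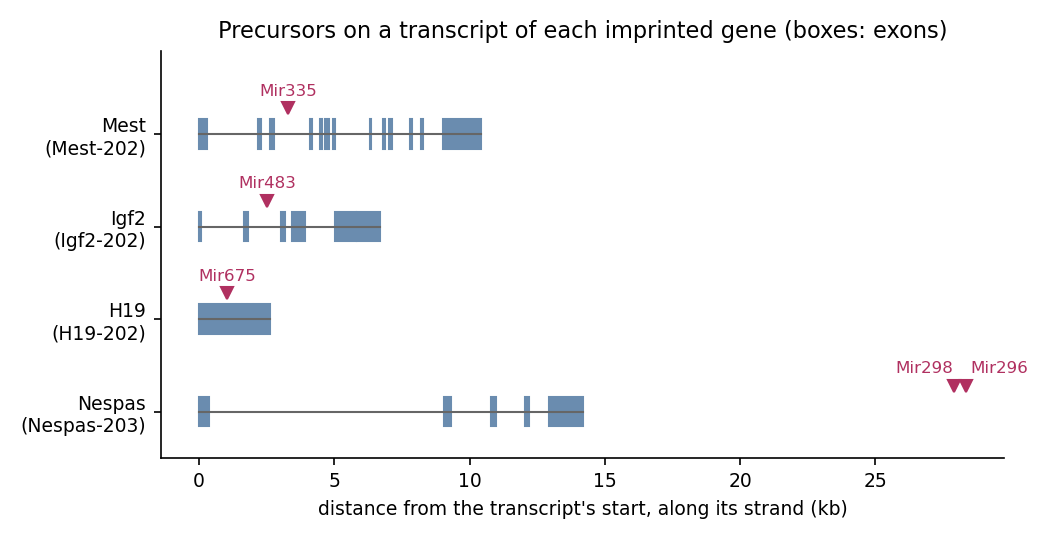
Position of each precursor (triangles) along 1 GENCODE M21 transcript of its imprinted gene, as distance in kb from the start of the transcript. Boxes are exons and lines are introns; Mir335 and Mir483 fall in introns, Mir675 in the first exon of H19, and Mir298 and Mir296 beyond the annotated end of Nespas.

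All 5 genes were detected, over a range of levels from 153 to 53850 counts per 1000000 counted for genes (CPM). Together they held 6.34% ± 0.16 of all gene counts (SD, n = 2), at 62263 CPM in replicate 1 and 64501 CPM in replicate 2. Mir335 alone made up 85.3% of this sum in replicate 1 and 84.6% in replicate 2. The other 4 genes added 9122 CPM and 9943 CPM. Reads from a library cut below 30 nt were taken to stand for whole mature miRNAs, which are 21 to 24 nt long in RefSeq here. The counts carry no read lengths, so this was not tested. On that assumption, levels were compared between genes without division by precursor length. Levels and ratios between genes are of reads. How evenly different miRNAs were turned into reads was not measured.

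Mir335, an intronic miRNA of the paternally expressed gene Mest that is known from mesodermal and mesenchymal cells, was the most abundant of the group. It had 265947 counts in replicate 1 and 255329 in replicate 2, or 53141 CPM (95% interval 52939 to 53343) and 54558 CPM (54347 to 54771). Its mean of 53850 ± 1002 CPM gave it rank 3 of the 1973 genes by the counted reads. Such ranks omit reads with more than a single mapping place, so that miRNAs with several genomic copies may stand too low. The gene just above in level, Mir99a, had 77959 ± 3697 CPM, and the gene just below, Mir10a of the Hoxb cluster, had 44729 ± 372 CPM. Both gaps are larger than the spread between the libraries. On the scale of mean log2(CPM + 1), Mir10a was the nearer neighbour, 0.27 away against 0.53 for Mir99a.

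Mir296, counted from the Nespas-Gnas domain and known from work on growth of blood vessels, had 20174 counts in replicate 1 and 19070 in replicate 2. These are 4031 CPM (95% interval 3976 to 4087) and 4075 CPM (4017 to 4133), which lie within each other's counting intervals. With a mean of 4053 ± 30.9 CPM it ranked 52nd. Its neighbours in level, Mir181d at 4126 ± 719 CPM and Mir369 of the Dlk1-Dio3 domain at 3867 ± 624 CPM, did not differ from it beyond their spread.

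Mir298, the close neighbour of Mir296, was counted 12797 times in replicate 1 and 13822 times in replicate 2. The levels were 2557 CPM (95% interval 2513 to 2602) and 2953 CPM (2904 to 3003), and replicate 2 was the higher one. The mean of 2755 ± 280 CPM gave it rank 62. Next to it stood Mir145a at 2839 ± 73.5 CPM and Gm24083 at 2724 ± 155 CPM, both within its spread. All counts of Gm24083 came from the strand opposite to its annotation.

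Mir483, which lies in an intron of the fetal growth factor gene Igf2, was counted 11917 times in replicate 1 and 12921 times in replicate 2. Its levels were 2381 CPM (95% interval 2339 to 2424) and 2761 CPM (2714 to 2809), again higher in replicate 2. The mean was 2571 ± 268 CPM, at rank 65. Mir183 at 2632 ± 41.4 CPM and Mir381 at 2500 ± 31.2 CPM were nearest in level and did not differ from it beyond the spread.

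Mir675, cut from the maternally expressed H19 RNA and known as a miRNA that restrains placental growth, was the least abundant. It had 761 counts in replicate 1 and 719 in replicate 2, or 152 CPM (95% interval 141 to 163) and 154 CPM (143 to 165). The libraries overlapped within counting error. Its mean of 153 ± 1.11 CPM gave rank 174 of 361 detected genes, close to the median detected level of 139 CPM. The counting intervals of this gene are wider than the SD of the 2 libraries, so that SD understates the error. Its level was far above the 0.599 CPM and 0.641 CPM that a count of 0 allows in replicates 1 and 2. Mir451a at 158 ± 51.0 CPM and Mirlet7a-2 at 153 ± 30.3 CPM were its nearest neighbours in level by the counted reads. These leave out reads that map to several places, so a neighbour with further copies may stand too low. Intervals cover counting error only, since each is a Poisson interval on the count of a single library. Reads carry no molecular identifiers, so repeated copies of a molecule cannot be told apart.

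**Figure D2:**
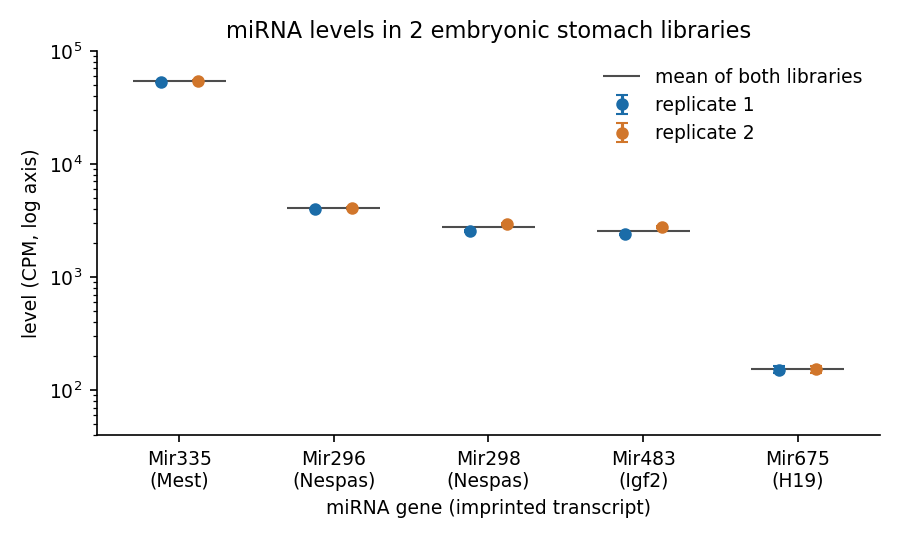
Level in CPM, on a log axis, of the 5 miRNA genes in replicate 1 (blue) and replicate 2 (orange), with 95% Poisson intervals that are mostly smaller than the points and the mean of both libraries as a line. Mir335 stands near 53850 CPM, Mir296, Mir298 and Mir483 between 2381 and 4075 CPM, and Mir675 near 153 CPM.

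**Figure D3:**
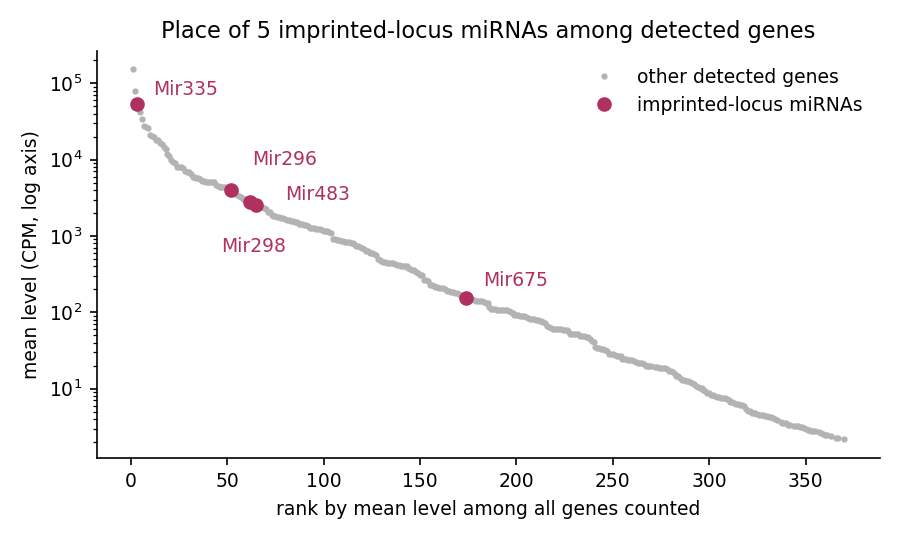
Mean level in CPM, on a log axis, of each detected gene against its rank among the 1973 genes counted, with the 5 imprinted-locus miRNAs in colour. Mir335 is at rank 3, Mir296, Mir298 and Mir483 lie at ranks 52, 62 and 65, and Mir675 is at rank 174.

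The order Mir335, Mir296, Mir298, Mir483, Mir675 was the same in both libraries. Ratios of counts taken within a library do not depend on the scaling of the totals. Mir335 exceeded Mir296 13.2-fold in replicate 1 (95% interval 13.0 to 13.4) and 13.4-fold in replicate 2 (13.2 to 13.6). It exceeded Mir675 349-fold and 355-fold. Mir296 exceeded Mir298 by a log2 ratio of 0.56 ± 0.14 (SD, n = 2), a difference larger than the spread between libraries. These ratios are given as a description with no test, since an exact permutation test over 2 libraries cannot reach a threshold and a test on reads would cover counting error alone.

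Mir298 and Mir483 differed in mean CPM by less than either SD, but both levels moved together between the libraries. Within each library, Mir298 was the higher by a similar small factor, 1.07 in replicate 1 (95% interval 1.05 to 1.10) and 1.07 in replicate 2 (1.04 to 1.10). The log2 ratio of Mir298 over Mir483 was 0.100 ± 0.0039 (SD, n = 2). The counting intervals of each library are wider than that SD, which therefore understates the error. Divided by precursor length, a scale that would suit reads of whole mature miRNAs less well, the log2 ratio turned to -0.068.

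The ratio between the close neighbours Mir296 and Mir298 was 1.58 in replicate 1 (95% interval 1.54 to 1.61) and 1.38 in replicate 2 (1.35 to 1.41). The intervals cover counting error alone and not the spread between biological replicates, so they do not say whether the ratio differs between stomachs in general. The Igf2-H19 pair also shifted, with Mir483 over Mir675 at 15.7 in replicate 1 (14.6 to 16.9) and 18.0 in replicate 2 (16.7 to 19.4), where the intervals meet. Mir296 over Mir675, a pair from different chromosomes, was 26.5 in both libraries (24.7 to 28.5 and 24.6 to 28.6), with intervals widened by the low counts of Mir675. Other pairs of separate loci shifted about as much as Mir296 over Mir298, such as Mir335 over Mir298 from 20.8 to 18.5, Mir335 over Mir483 from 22.3 to 19.8 and Mir298 over Mir675 from 16.8 to 19.2. The shifts follow Mir298 and Mir483, which were both higher in replicate 2 than in replicate 1.

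**Figure D4:**
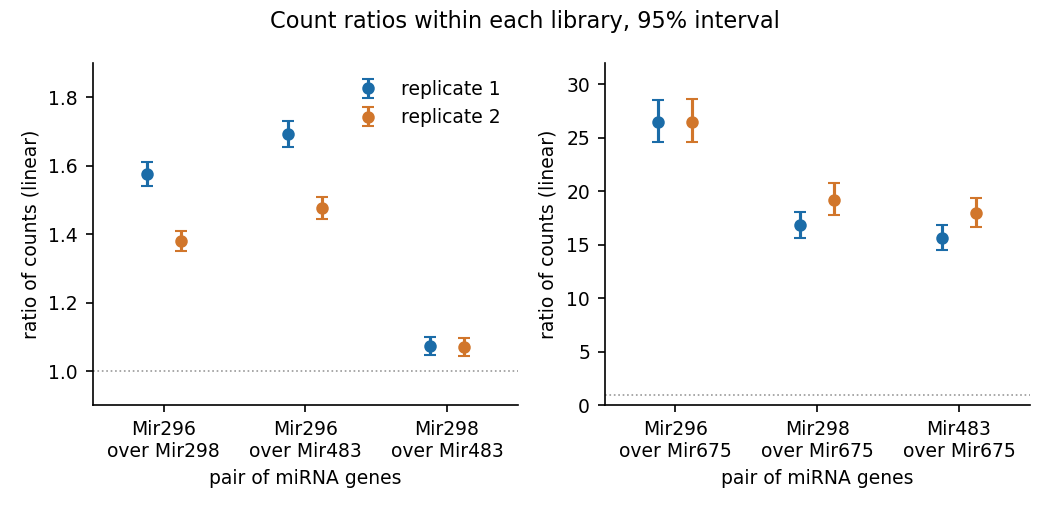
Ratio of counts, on linear axes, for 6 pairs among Mir296, Mir298, Mir483 and Mir675 in replicate 1 (blue) and replicate 2 (orange), with exact 95% intervals and a dotted line at equal counts. The points lie apart for Mir296 over Mir298 (1.58 and 1.38) and Mir296 over Mir483 (1.69 and 1.48) and together for Mir298 over Mir483 (1.07 in each).

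The difference between the replicates was then read for each gene from a test over all 361 detected genes, the exact conditional binomial test with Benjamini-Hochberg adjustment. This test sets the libraries, not conditions, against counting noise alone. By an adjusted p under 0.05, 42.1% of detected genes differed and 24.7% were higher in replicate 2. Of the 5 genes, 3 differed, all of them higher in replicate 2 when scaled by total gene counts. By a rule that also asks an absolute log2 ratio of 1 or more, 1.11% of all detected genes differed and none of the 5 did.

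Mir298 had a log2 ratio of replicate 2 over replicate 1 of 0.21 (95% interval 0.17 to 0.24), a 1.16-fold difference with an adjusted p = 7.81e-31 in the exact test. Mir483 had nearly the same log2 ratio, 0.21 (0.18 to 0.25), with an adjusted p = 2.30e-30 in the exact test. Among the 196 genes of 100 CPM or more, 145 had a smaller absolute log2 ratio than Mir298 and 149 a smaller one than Mir483, against a median of 0.11. These miRNAs of different chromosomes thus showed log2 ratios of nearly equal size, above that median at this scaling and far below 1. Mir96, which is not of the group, had a log2 ratio of 0.212, so such a value is not particular to Mir298 and Mir483. A single comparison of 2 libraries cannot show whether their levels vary together.

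Mir335 had a log2 ratio of 0.04 (95% interval 0.03 to 0.05), a difference of 1.03-fold with an adjusted p = 1.67e-20 in the exact test. Its sign turned with the scaling, to -0.015 with TMM factors and -0.052 with DESeq2 size factors. Mir296 at 0.02 (-0.01 to 0.04, adjusted p = 0.419, exact test) and Mir675 at 0.01 (-0.13 to 0.16, adjusted p = 0.924) did not pass, and their signs turned under the same scalings. With TMM factors Mir296 passed at a log2 ratio of -0.037, and 4 of the 5 genes then passed, 2 of them higher in replicate 2. The split of all genes that passed moved likewise, from 89 higher in replicate 2 and 63 higher in replicate 1 to 74 against 94 with TMM factors and 58 against 115 with size factors. Mir298 and Mir483 stayed higher in replicate 2 under each scaling tried, with smaller log2 ratios of 0.155 and 0.161 with TMM factors and of 0.118 and 0.123 with size factors. With size factors both lay below the median absolute log2 ratio of 0.141 over genes of 100 CPM or more, so their place above the median depends on the scaling.

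**Figure D5:**
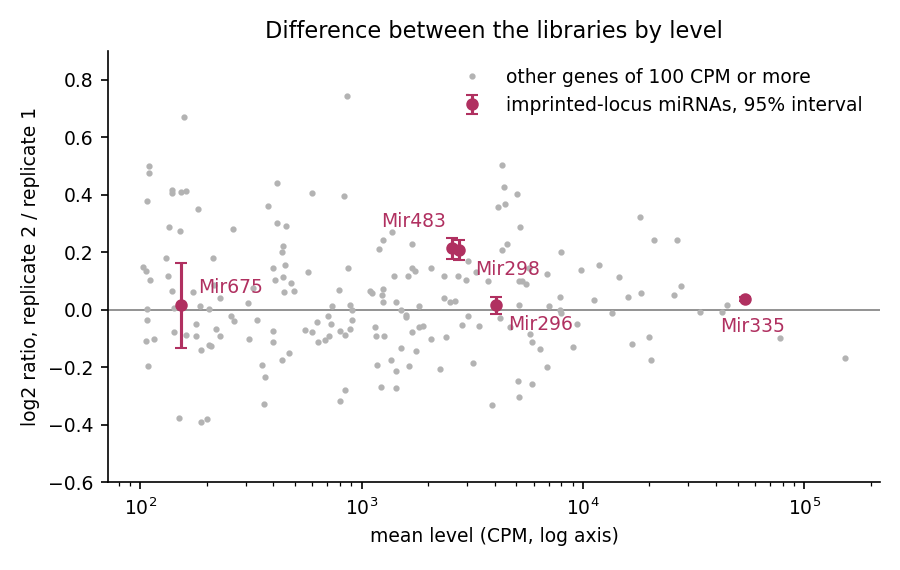
Log2 ratio of replicate 2 over replicate 1 against mean level in CPM (log axis) for the genes of 100 CPM or more, with the 5 imprinted-locus miRNAs in colour and their exact 95% intervals. Mir298 and Mir483 lie together at 0.21, and Mir335, Mir296 and Mir675 lie between 0.01 and 0.04.

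The strand columns place the counts of these genes almost wholly on the annotated strand. Mir335 had 1 count on the opposite strand in each library, and the other 4 genes had 0 counts there in both. Over all genes, 2.75% of counts in replicate 1 and 2.73% in replicate 2 came from the opposite strand. This holds also for Mir296 and Mir298 in the Gnas domain, where sense and antisense transcripts are known to overlap.

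The surroundings of the loci were read from the counted miRNA genes with a GENCODE M21 position within 1 Mb. Of 1973 counted genes, 1894 had a match there. The rest could not enter these windows or the totals of other imprinted loci. Around Mir335 on chromosome 6, the detected genes were the Mir183 cluster of sensory and epithelial cells, whose members ran from Mir96 at 1196 ± 124 CPM to Mir182 at 4414 ± 916 CPM, and on the other side Mir29a, known for targeting collagen genes, at 41.4 ± 1.40 CPM. These 4 genes lie on the minus strand, opposite to Mir335, which exceeded Mir182 12.2-fold and Mir29a 1302-fold. Of the remaining genes of that window, Mir29b-1 had 7 and 2 counts and Gm23049, on the plus strand, had 0. Reads that map to several places are not counted, so a low count in these windows need not mean a low level. Near Mir296 and Mir298 no further miRNA gene with a position had a count, with Mir6340 and Gm27591 at 0 in both libraries. Near Mir483 and Mir675, Mir7063 and Mir7064 had at most 7 counts in a library and Mir3104 had 0. High miRNA counts at the chromosome 2 and chromosome 7 loci were thus limited, within these 1 Mb windows and among counted genes with a position, to the imprinted-locus miRNAs themselves.

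Other imprinted loci give a scale for these levels. Over both strands, the 59 miRNA genes counted between Dlk1 and Dio3 totalled 80537 ± 3174 CPM, at 82782 CPM in replicate 1 and 78293 CPM in replicate 2. The 5 genes totalled 63382 ± 1583 CPM on that scale, and the difference was larger than the spread between libraries. Of the Dlk1-Dio3 counts, 15.1% and 15.6% fell on the strand opposite to the annotation of their row. Most of these came from rows annotated on the minus strand, led by Gm24321 (27060 and 27987 counts) and Gm25252 (16997 and 13969). Their reads thus lie on the plus strand, as do those of Mir127 and Mir411. On the own strand alone, the totals were 70086 ± 3090 CPM (72270 and 67901) against 65169 ± 1617 CPM (64026 and 66312). The Dlk1-Dio3 total was still the higher in each library. It leaves out those plus-strand reads because of how their rows are annotated, so the smaller gap is not a fairer comparison. No gene of that domain reached the level of Mir335 over both strands, its highest being Mir127 at 9404 ± 223 CPM and Mir411 at 8999 ± 573 CPM, while 7 exceeded Mir296 and 33 exceeded Mir675. The 107 miRNA genes inside Sfmbt2, a paternally expressed gene with a large miRNA cluster in an intron, totalled 4753 ± 179 CPM on their own strand, led by Mir467e at 1425 ± 19.2 CPM and Mir467d at 1256 ± 44.2 CPM over both strands. Many genes of that cluster are near copies, and reads that map to several places are not counted for them.

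The depth was 5004548 gene counts of 8755979 reads (replicate 1) and 4679914 of 8251892 (replicate 2). The tissue label was checked with miRNA markers. Of the smooth muscle markers, Mir143 stood at 152490 CPM and Mir145a at 2839 CPM. The Mir200 family of epithelium summed to 41460 CPM, with all members detected. Squamous epithelium markers (Mir205 and Mir203) summed to 16628 CPM. Mir375 of gastric and endocrine epithelium stood at 5115 CPM and Mir126a of endothelium at 20389 CPM. Erythroid markers summed to 185 CPM and leukocyte markers to 579 CPM, without Mir142, which is not among the genes counted. No other tissue was at hand for comparison. Liver (Mir122) stood at 61.3 CPM, pancreatic acinar markers at 6.29 CPM and striated muscle markers at 107 CPM. The striated muscle sum leaves out Mir1a-2, which is not among the genes counted, and reads that map to several places, so the 0 counts of the near copies Mir133a-1 and Mir133a-2 say nothing about their level. The part of single cell types in the levels of the 5 genes was not tested.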

How the data were processed

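The unit of the deposited tables is counts, whole numbers of reads per miRNA gene, 1 table per library. Per the text deposited with the files, they were made from an alignment on mm10 with GENCODE M4. Which aligner and counter made them is not given in the sources used here. Counts over both strands (first column) were used, and the other columns, 1 per strand, add up to it for all 1973 genes. Lines that name no gene (unmapped, mapped to several places, outside genes) held 42.8% and 43.3% of reads in replicates 1 and 2 and were left out of totals. Identifiers were matched to GENCODE M21, with a symbol for 1894 genes.

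CPM used total gene counts. The libraries were compared by an exact conditional binomial test, two-sided (SciPy 1.17.1), with Benjamini-Hochberg adjustment over detected genes. The code was run on simulated libraries that held counting noise alone. Such a run cannot show how the test behaves with the spread between real replicates. With 1 group there is no contrast for a quasi-likelihood fit. Alternatives used edgeR 4.0.16 (TMM) and DESeq2 1.42.0 size factors. Hairpins were folded with RNAfold 2.7.2. Named genes are the 5 members, their neighbours in level and within 1 Mb, genes sharing a seed, and the 2 highest genes of the other imprinted totals. The members and lists were chosen with earlier results of these data known.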

Additional observations from a re-analysis of the deposited data

How the results depend on the processing

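The total of the 5 genes was 100868 CPM when the 5 most abundant genes, Mir335 among them, were left out of the denominator, 36084 per 1000000 reads of any kind and 65169 CPM on the own strand, against 63382 CPM. Divided by precursor length, the log2 ratio of Mir335 was 3.42 over Mir296, 4.04 over Mir298, 3.97 over Mir483 and 8.24 over Mir675. That of Mir296 over Mir675 was then 4.82 and of Mir483 over Mir675 4.27, and that of Mir298 over Mir483 reversed to -0.0677. The log2 ratio of replicate 2 over replicate 1 reversed for Mir335 to -0.0147 (TMM factors), -0.0523 (DESeq2 size factors) and -0.0104 (total without the 5 most abundant genes), for Mir296 to -0.0371, -0.0747 and -0.0328, and for Mir675 to -0.0378, -0.0754 and -0.0335, since such scalings shift all genes alike. Detection at 1 count or more in each library gave 605 genes against 361. Without either replicate, the total was 62263 to 64501 CPM and no order of the 5 genes changed. Of 124 recomputed values, 91 were labelled unchanged, 23 moved and 10 reversed. Unchanged meant the same direction and call, a value within the spread or, for counts of genes, within a fixed factor. This tally does not measure robustness. Values without either replicate lie within the SD of both libraries by construction. Own-strand ratios between the 5 genes can hardly change, as these genes had almost no opposite-strand counts. No paired analysis was possible because the series has 1 group. Depth limits Mir675 most.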
